A study of Mus musculus with 9 samples.

Results

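The 10 genes described here encode subunits of the transcription factor NF-kB (Nfkb1, Nfkb2, Rela and Relb), proteins that restrain or modulate it (Nfkbia, Nfkbiz and Tnfaip3), and products of known NF-kB target genes (Tnfaip2 and the adhesion molecules Vcam1 and Icam1). They were listed by name as pathway members, not by a threshold on their values, and 10 of 10 were found among the 55487 genes of the table. RNA was sequenced from B16F10 cells, a mouse melanoma line, in 3 groups of 3 libraries, each after 6 h. One group received interferon gamma (IFNγ) at 50 ng/mL together with FK866 at 50 nM, another IFNγ at 50 ng/mL without FK866, and the last medium alone. FK866 inhibits NAMPT, the enzyme that limits NAD salvage. All libraries come from this 1 cell line, and every title carries the word Control with the number 3, 4 or 5, whose meaning is not stated. The treatment protocol speaks of mouse or human IFNγ, names a catalogue number for mouse, and does not say which a library received. No comparison with FK866 alone was made.

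NF-kB dimers are held in the cytoplasm by inhibitory proteins of the IkB family. Receptors for tumour necrosis factor, interleukin-1 and microbial products activate IkB kinases, the inhibitor is degraded, and the dimer enters the nucleus. A separate route, through the kinase encoded by Map3k14, processes the Nfkb2 product and frees dimers that contain RelB. Nfkbia and Tnfaip3 are themselves classical target genes and act as feedback inhibitors. IFNγ signals through a different pathway, whose response elements in DNA include gamma-activated sites (GAS), and some target genes are known to hold elements of both kinds.

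Library totals ran from 15317003 to 18466972 counts. Levels below are CPM, read counts scaled to a common library total, after TMM scaling, which corrects for differences in library composition, and the 3 values of a group are always given for numbers 3, 4 and 5 in this order. Irf1, a direct target of IFNγ signalling, had 719, 796 and 725 CPM with IFNγ plus FK866 and 762, 826 and 773 CPM with IFNγ, against 20.6, 17.3 and 14.0 CPM in media. The 6 cytokine-treated libraries all lay far above the media libraries for this gene. Nampt, which encodes the enzyme that FK866 inhibits, had 522 ± 79.9 CPM with IFNγ plus FK866 and 538 ± 47.1 CPM with IFNγ, against 192 ± 33.4 CPM in media (SD, n = 3 each). The 7 melanocyte markers summed to 14982 to 17078 CPM with IFNγ plus FK866, 15538 to 17187 CPM with IFNγ and 16881 to 19023 CPM in media. Tyrp1, Pmel and Dct carry most of these sums. Between IFNγ and media 1 of the 7 fell by edgeR without the block, Mitf, the lineage's transcription factor, at 335 ± 60.5 CPM with IFNγ against 807 ± 68.4 CPM in media, and 3 fell with the number in the titles as a block, a fit explained next, Mitf, Tyr and Sox10. Over all genes tested, 6.14% fell with the block, and 3.3% were called in either direction without it. Separate cultures are not stated in the labels, so the spread that p-values measure may be technical.

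Libraries that share a number resembled each other across treatments, as described further on. Group means were therefore compared both without the number in the model and with the number as a block, which compares treatments within numbers. The call rule in both fits was an adjusted p below 0.05 in edgeR's quasi-likelihood test, adjusted by the Benjamini-Hochberg method over 15237 genes. For IFNγ against media the median standard error of a log2 fold change was 0.213 without the block and 0.107 with it. Of the 10 genes 9 passed the filter on low counts. Icam1 did not. Vcam1 passed only through cytokine-treated libraries, so its calls against media lean on the groups where it was high.

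RefSeq promoter sequence on GRCm38.p6 was found for 6 of the 10 genes (Nfkb2, Rela, Nfkbia, Tnfaip3, Tnfaip2 and Icam1). None was found for Nfkb1, Relb, Nfkbiz and Vcam1. Of the genes called higher with IFNγ once numbers were blocked, only Tnfaip2 thus has a window. In the 250 bases before each annotated start, 3 motifs were searched on both strands. Some genes have more than 1 start, so the 6 genes have 9 windows, 3 of them for Nfkb2 and 2 for Tnfaip3. Among the Nfkb2 windows, 2 share some bases. The kappa B motif, GGGNNNNNCC, occurred in 9 of the 9 windows, and in 45.8% of 32851 promoter windows of the same length. The GAS motif, TTCNNNGAA, occurred in 2 of the 9, the Icam1 window and 1 of the 3 Nfkb2 windows, and in 7.02% of all windows. The interferon-stimulated response element, GAAANNGAAA, occurred in 0 of the 9 and in 2.98% of all windows. Matches may overlap each other, and a match describes letters, not binding. The windows of 4 genes are shown: Icam1 and Nfkb2 because they hold a GAS match, Tnfaip2 because its RNA was called higher with IFNγ once numbers were blocked, and Nfkbia as a classical target whose RNA was not called. Capitals mark the kappa B and GAS matches, each sequence is written 5′ to 3′ on the gene's strand, and its last base is position -1 before the start. The Icam1 window is chr9:21015690-21015939 on the plus strand, and the Nfkb2 window, the most upstream of 3 for that gene, is chr19:46304487-46304736 on the plus strand. The Tnfaip2 window is chr12:111442411-111442660 on the plus strand, and the Nfkbia window is chr12:55492648-55492897 on the minus strand.
Icam1: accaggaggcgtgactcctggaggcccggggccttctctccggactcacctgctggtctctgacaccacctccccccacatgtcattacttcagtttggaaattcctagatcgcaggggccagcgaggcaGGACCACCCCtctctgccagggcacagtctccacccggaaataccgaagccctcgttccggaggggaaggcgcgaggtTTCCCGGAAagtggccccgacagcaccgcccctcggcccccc
Nfkb2: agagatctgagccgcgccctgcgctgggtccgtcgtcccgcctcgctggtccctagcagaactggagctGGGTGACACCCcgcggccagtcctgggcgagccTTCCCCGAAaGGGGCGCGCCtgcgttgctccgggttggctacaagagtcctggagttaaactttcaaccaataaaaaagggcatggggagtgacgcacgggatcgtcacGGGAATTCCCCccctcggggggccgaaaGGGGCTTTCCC
Tnfaip2: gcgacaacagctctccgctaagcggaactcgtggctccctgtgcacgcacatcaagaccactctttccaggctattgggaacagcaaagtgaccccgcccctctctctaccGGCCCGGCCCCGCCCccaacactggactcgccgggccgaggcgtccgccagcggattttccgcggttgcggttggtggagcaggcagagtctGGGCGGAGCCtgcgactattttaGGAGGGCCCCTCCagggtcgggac
Nfkbia: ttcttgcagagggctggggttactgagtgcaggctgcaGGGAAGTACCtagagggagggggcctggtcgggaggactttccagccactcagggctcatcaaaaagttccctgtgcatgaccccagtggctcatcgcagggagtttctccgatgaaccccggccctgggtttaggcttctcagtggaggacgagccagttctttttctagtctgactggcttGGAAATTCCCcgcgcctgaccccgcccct
The GAS match was TTCCCGGAA beginning at -42 in Icam1 and TTCCCCGAA beginning at -148 in Nfkb2. Of the 5 kappa B matches in Tnfaip2, those beginning at -139 and -134 overlap, as do those at -24 and -21, while the fifth begins at -47. In Nfkbia the kappa B matches were GGGAAGTACC at -212 and GGAAATTCCC at -29. Nfkb2 held 9 kappa B matches in the window shown, counting both strands, among them GGGAATTCCC at -39.

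Levels of different genes were compared as CPM per kilobase of annotated exon. In media, Rela, the gene of a main transactivating subunit, was highest at 21.5 ± 1.69 CPM per kb (SD, n = 3). Nfkbia followed at 16.1 ± 3.40 CPM per kb and Nfkb2 at 8.09 ± 0.802 CPM per kb, and the libraries of these 3 genes did not overlap on this scale. Nfkb1 at 4.85 ± 0.327 CPM per kb and Tnfaip2 at 3.88 ± 0.990 CPM per kb overlapped, as did Nfkbiz at 2.47 ± 0.605 CPM per kb and Relb at 1.91 ± 0.204 CPM per kb. Tnfaip3 stood lower, at 0.398 ± 0.0823 CPM per kb. The adhesion genes were lowest, Icam1 at 0.0349 ± 0.0251 and Vcam1 at 0.0133 ± 0.000909 CPM per kb, levels that rest on 8 and 6 reads over the 3 media libraries. Icam1 did not stand above Vcam1 beyond its own SD. In both cytokine groups the order was Rela, Nfkbia, Nfkb2, Tnfaip2, Nfkb1, Nfkbiz, Relb, Tnfaip3, Vcam1 and Icam1. Tnfaip2 thus stood above Nfkb1 there, at 7.03 ± 2.02 CPM per kb with IFNγ plus FK866 and 7.90 ± 2.24 with IFNγ, beside 5.65 ± 0.566 and 6.14 ± 0.471 CPM per kb for Nfkb1. Its libraries overlapped those of Nfkb2 in both groups and those of Nfkb1 with IFNγ plus FK866, while with IFNγ the lowest Tnfaip2 library, 6.51 CPM per kb, barely cleared the highest Nfkb1 library, 6.50 CPM per kb. Vcam1 and Icam1 overlapped in both cytokine groups. Changes in RNA per cell and in the share of cells making it cannot be told apart in bulk RNA.

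**Figure D1:**
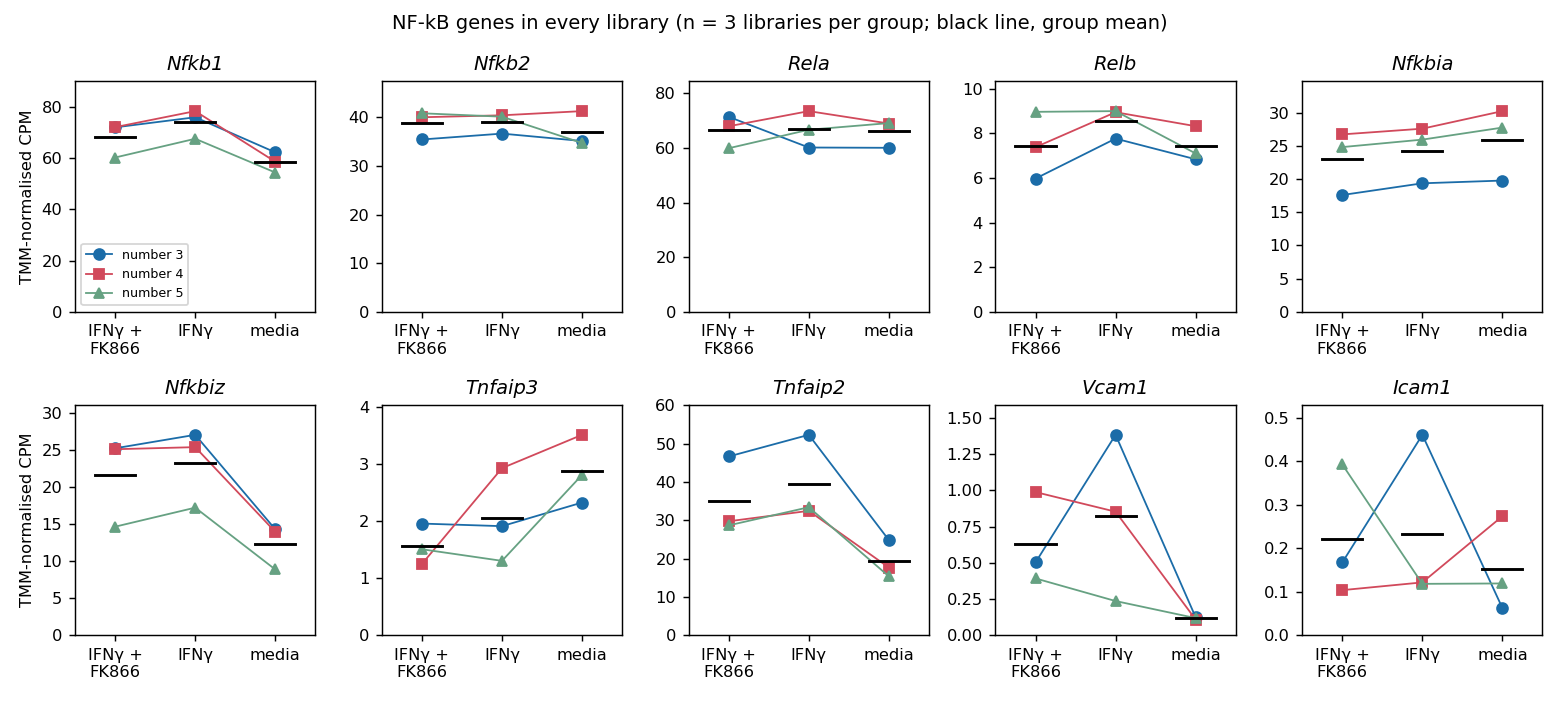
TMM-normalised CPM (linear axes starting at 0) of the 10 NF-kB genes in every library of the IFNγ plus FK866, IFNγ and media groups; lines join libraries with the same number and black bars are group means. Nfkb1, Nfkbiz, Tnfaip2 and Vcam1 lie higher with IFNγ than in media at each number, and Nfkbia separates by number more than by treatment.

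IFNγ was compared with media to show the response of these genes to the cytokine. Within numbers, 4 of the 9 genes tested rose: the subunit gene Nfkb1, the nuclear IkB gene Nfkbiz, the target gene Tnfaip2 and the adhesion gene Vcam1. Tnfaip2 and Nfkbiz changed by log2 fold changes near 1, Nfkb1 by less, and Vcam1 by more but from very few reads. The other 5 were not called. Over all genes the fit with the block called 14.3%, of which 8.12% of genes tested were higher and 6.14% lower. Without the block 0 of the 9 were called by edgeR, against 3.3% of all genes. An unadjusted edgeR p below 0.05 was found for 4 of them, and for 1550 of all 15237 genes tested. DESeq2 without the block called 2, Tnfaip2 and Nfkbiz, and 757 of all 15237.

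Among the subunits, Nfkb1, which encodes p105 and its processed form p50, had 76.0, 78.5 and 67.6 CPM with IFNγ, against 62.3, 58.7 and 54.4 CPM in media. The lowest IFNγ library lay above the highest media library. The log2 fold change was 0.34 with a standard error of 0.06 and an edgeR adjusted p of 5.31e-04 with the block, against 0.11 and 0.204 without it. Rela had 60.2, 73.5 and 66.7 CPM with IFNγ, against 60.1, 69.0 and 69.1 CPM in media. These groups overlapped, and the 95% interval of the log2 difference with the block ran from -0.15 to 0.18. Nfkb2, which encodes p100 and its processed form p52, had 36.7, 40.4 and 40.2 CPM with IFNγ, against 35.2, 41.3 and 34.7 CPM in media, with an interval of -0.08 to 0.24. Relb, the partner of p52, had 7.77, 8.95 and 9.003 CPM with IFNγ, against 6.84, 8.33 and 7.10 CPM in media. Relb was higher with IFNγ at each number, but its groups overlapped, its interval ran from -0.11 to 0.52 and it was not called.

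Among the inhibitors and modulators, Nfkbiz, which encodes the nuclear protein IkB-zeta, had 27.1, 25.4 and 17.2 CPM with IFNγ, against 14.3, 14.0 and 8.89 CPM in media. The groups did not overlap, and the library numbered 5 was the lowest of each. The log2 fold change was 0.91 with a standard error of 0.10 and an edgeR adjusted p of 4.99e-07 with the block, against 0.27 and 0.158 without it. Within numbers 3, 4 and 5 the log2 difference was 0.91, 0.86 and 0.95, so it varied little while the level itself did. Nfkbia, which encodes IkB-alpha, the classical cytoplasmic inhibitor, had 19.4, 27.6 and 25.9 CPM with IFNγ, against 19.8, 30.2 and 27.8 CPM in media. It was slightly lower at each number, its groups overlapped, and its interval with the block, -0.26 to 0.08, does not reach a 2-fold change in either direction. Tnfaip3, which encodes the ubiquitin-editing inhibitor A20, had 1.91, 2.92 and 1.303 CPM with IFNγ, against 2.32, 3.51 and 2.81 CPM in media. It was lower with IFNγ at each number, the groups overlapped, and it was not called, with an interval of -1.15 to 0.12.

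Among the targets, Tnfaip2, first known as a gene induced by tumour necrosis factor in endothelial cells, had 52.3, 32.5 and 33.4 CPM with IFNγ, against 24.9, 17.7 and 15.4 CPM in media. The groups did not overlap, and the library numbered 3 was the highest of each. The log2 fold change was 1.02 with a standard error of 0.08 and an edgeR adjusted p of 6.07e-09 with the block, against 1.03, 0.27 and 0.0852 without it. Vcam1, which encodes a ligand of the integrin alpha4 beta1, had 21, 14 and 4 reads with IFNγ, against 2, 2 and 2 reads in media, or 1.38, 0.853 and 0.237 CPM against 0.126, 0.110 and 0.119 CPM. The groups did not overlap, although the IFNγ library numbered 5 came close to media. With the block the log2 fold change was 2.66, with a standard error of 0.67 and an edgeR adjusted p of 0.00801. Without the block the log2 fold change was 2.72 and the edgeR adjusted p 0.1, or 0.0706 with no filter on low counts as well.

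Icam1, which encodes a ligand of leukocyte integrins, had 7, 2 and 2 reads with IFNγ, against 1, 5 and 2 reads in media, and the groups overlapped. In a fit without the filter on low counts its log2 difference was 0.56 with an interval of -1.40 to 2.51, so no difference was detectable at this depth. Its exons overlap on the other strand with Gm47079, which held 107 reads over all libraries against 30 for Icam1, and the strand setting of the counting is not given in the sources used here. The exons of Nfkb2 overlap in the same way with AC114539.1 and Psd, which held 615 and 165 reads against 5824 for Nfkb2.

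With the block, the calls of Nfkb1, Nfkbiz and Tnfaip2 held when any 1 number was left out. Vcam1 lost its call without number 3, at a log2 fold change of 2.16, with an edgeR adjusted p of 0.116, and fell below the filter without number 4. The 4 genes called were also those whose IFNγ libraries all lay above the media libraries, as for 7.97% of all genes tested. The calls rest on the same libraries, so this describes them and is no separate support. At each number, 5 of the 9 were higher with IFNγ, the 4 genes called and Relb, and 2 were lower, Nfkbia and Tnfaip3, as were 20.2% and 22.3% of all genes tested. Of 6 endothelial markers, in whose cell type Vcam1 and Icam1 are best known, 5 were at 0 in every library with IFNγ and 4 in media, and the summed level was 1.22 to 2.07 CPM with IFNγ and 0.986 to 3.10 CPM in media. Of 8 leukocyte markers, 6 were at 0 in each of these 2 groups, including Ptprc, and the summed level was 3.38 to 9.99 CPM with IFNγ and 3.82 to 11.7 CPM in media. Cd68 made up most of it, at up to 9.75 CPM with IFNγ and 11.3 CPM in media. Of 6 fibroblast markers, 1 was at 0 in each, and the summed level was 8.56 to 11.8 CPM with IFNγ and 13.4 to 18.8 CPM in media. Col1a2 averaged 1.68 CPM with IFNγ and 5.45 CPM in media. Of the 3 fibroblast markers tested, 1 was called lower in both fits. Over all genes, 6.14% were called lower with the block, and 3.3% in either direction without it. The part of these cells in the results was not tested.

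**Figure D2:**
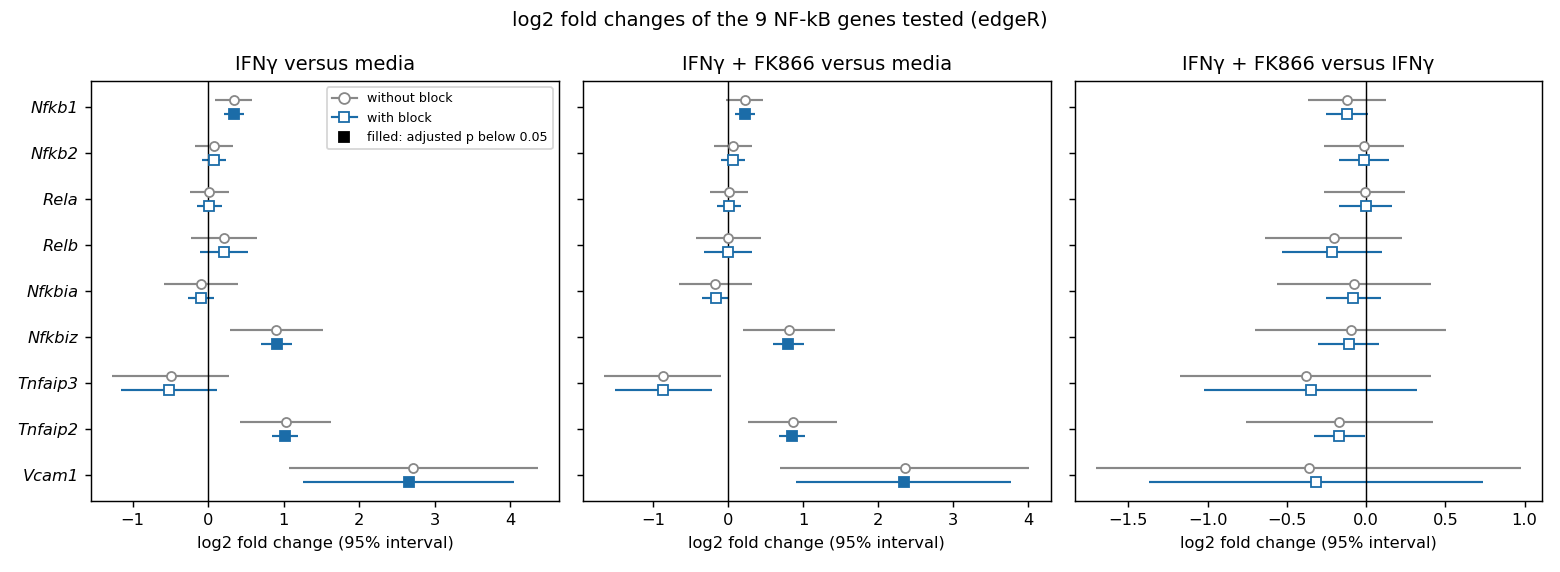
Log2 fold changes with 95% intervals of the 9 NF-kB genes tested in the 3 comparisons, from edgeR without the block (grey circles) and with the number as a block (blue squares); filled symbols have an adjusted p below 0.05. Nfkb1, Nfkbiz, Tnfaip2 and Vcam1 are filled in both comparisons with media, with the block, and no symbol is filled for IFNγ plus FK866 against IFNγ.

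IFNγ plus FK866 was compared with IFNγ to show whether inhibition of NAMPT altered these genes in cytokine-treated cells. None of the 9 genes tested was called by edgeR without the block or with it, or by DESeq2, where 0% and 0.0197% of all genes were called by the 2 edgeR fits. At an unadjusted edgeR p below 0.05, 0 of the 9 passed without the block, where 88 of all 15237 genes did. With the block 1 passed, Tnfaip2, where 573 of all 15237 did. Tnfaip2 had 46.6, 29.7 and 28.7 CPM with IFNγ plus FK866, against 52.3, 32.5 and 33.4 CPM with IFNγ. Its log2 difference with the block was -0.17 with an interval of -0.33 to -0.01, an unadjusted p of 0.0393 and an edgeR adjusted p of 0.987. It was lower with FK866 at each of the 3 numbers, and the groups overlapped. In all, 5 of the 9 were lower at each number, Tnfaip2, Nfkb1, Nfkbiz, Nfkbia and Relb, where 16.2% of all genes tested were, and 0 were higher at each, where 12.1% were. Groups that did not overlap were found for 0 of the 9, against 1.94% of all genes tested with FK866 higher and 1.39% with FK866 lower.

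The intervals with the block bound how far FK866 could have moved the better measured genes. Nfkb1 had 72.1, 72.2 and 60.3 CPM with IFNγ plus FK866, against 76.0, 78.5 and 67.6 CPM with IFNγ, and the interval of its log2 difference ran from -0.25 to 0.01. Nfkbiz had 25.2, 25.1 and 14.7 CPM with IFNγ plus FK866, against 27.1, 25.4 and 17.2 CPM with IFNγ, with an interval of -0.30 to 0.08. Both genes were lower with FK866 at each number, and their groups overlapped. Rela had 71.4, 68.0 and 59.9 CPM with IFNγ plus FK866, against 60.2, 73.5 and 66.7 CPM with IFNγ, and its interval of -0.17 to 0.16 was nearly centred on 0. Nfkb2 had 35.5, 40.0 and 40.9 CPM with IFNγ plus FK866, against 36.7, 40.4 and 40.2 CPM with IFNγ, with an interval of -0.17 to 0.14. Nfkbia had 17.6, 26.7 and 24.8 CPM with IFNγ plus FK866, against 19.4, 27.6 and 25.9 CPM with IFNγ, with an interval of -0.26 to 0.10. None of these 5 intervals reaches a 2-fold change in either direction.

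The low genes were bounded less tightly. Relb had 5.98, 7.38 and 8.97 CPM with IFNγ plus FK866, against 7.77, 8.95 and 9.003 CPM with IFNγ, and its interval ran from -0.53 to 0.10. Tnfaip3 had 1.95, 1.25 and 1.51 CPM with IFNγ plus FK866, against 1.91, 2.92 and 1.303 CPM with IFNγ, with an interval of -1.02 to 0.32, and only the library numbered 4 was clearly lower. Vcam1 had 9, 19 and 6 reads with IFNγ plus FK866, against 21, 14 and 4 with IFNγ, and its interval of -1.37 to 0.74 leaves room for a change of more than 2-fold downward. Icam1 had 3, 2 and 6 reads with IFNγ plus FK866, against 7, 2 and 2 with IFNγ, and no difference was detectable at this depth. The groups of all 4 genes overlapped.

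IFNγ plus FK866 was also compared with media, the same media libraries as above. With the block 4 of the 9 genes tested rose and 0 fell, where 16.1% of all genes were called, 8.53% higher and 7.61% lower. Tnfaip2 averaged 35.0 ± 10.1 CPM with IFNγ plus FK866 and 19.3 ± 4.93 CPM in media (SD, n = 3 each), at a log2 fold change of 0.85, with an edgeR adjusted p of 1.03e-07. Nfkbiz averaged 21.7 ± 6.07 CPM with IFNγ plus FK866 and 12.4 ± 3.03 CPM in media, at a log2 fold change of 0.80, with an edgeR adjusted p of 2.94e-06. Vcam1 had 34 reads in all with IFNγ plus FK866 and 6 in media, at a log2 fold change of 2.34, with an edgeR adjusted p of 0.0221, but DESeq2 with the block gave 0.0607. Nfkb1 averaged 68.2 ± 6.83 CPM with IFNγ plus FK866 and 58.5 ± 3.95 CPM in media, at a log2 fold change of 0.22, with an edgeR adjusted p of 0.02. Its call was lost without number 4, with an adjusted p of 0.19, and its highest media library overlapped the treated group. Without the block 0 of the 9 were called by edgeR, where 3.36% of all genes were. An unadjusted edgeR p below 0.05 was found for 4 of them, and for 1620 of all 15237 genes tested. DESeq2 without the block called 1 of them, and 775 of all 15237.

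Tnfaip3 was the 1 gene of the 9 tested whose libraries with IFNγ plus FK866 all lay below those in media, as for 6.29% of all genes tested. It had 1.95, 1.25 and 1.51 CPM with IFNγ plus FK866, against 2.32, 3.51 and 2.81 CPM in media, or 82 reads against 148. The log2 difference with the block was -0.87 with an interval of -1.52 to -0.22, and the edgeR adjusted p of 0.0655 missed the threshold. Without number 3 it passed, at a log2 fold change of -1.18 and an edgeR adjusted p of 0.0226. Without number 4 or 5 Tnfaip3 was not called, the log2 fold change shrinking to as little as -0.57. The edgeR adjusted p then reached up to 0.530. Nfkbia, the other classical feedback inhibitor, averaged 23.0 ± 4.82 CPM with IFNγ plus FK866 and 25.9 ± 5.47 CPM in media, with a log2 difference of -0.17 and an edgeR adjusted p of 0.206. At each number 2 of the 9 were lower, Tnfaip3 and Nfkbia, and 4 higher, the 4 that were called, as were 23.1% and 18% of all genes tested. The libraries of Tnfaip2, Nfkbiz and Vcam1 with IFNγ plus FK866 all lay above those in media, as for 7.98% of all genes tested. Rela, Nfkb2 and Relb had log2 differences of 0.01, 0.06 and -0.01 with the block.

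Levels of several of these genes differed with the number in the titles in every treatment. In a test of the number with treatment in the model, 4 of the 9 genes passed an edgeR adjusted p of 0.05, where 51.8% of all genes did, so the share among these genes is no higher than the background. Nfkbia averaged 18.9 ± 1.158 CPM in the 3 libraries numbered 3, 28.2 ± 1.83 CPM in those numbered 4 and 26.2 ± 1.48 CPM in those numbered 5 (SD over treatments, n = 3 each). Every library numbered 3 lay below every other library for this gene, with an edgeR adjusted p of 2.76e-05. Tnfaip2 went the other way, with log2 differences of -0.62 for number 4 against 3 and -0.68 for number 5 against 3, and an edgeR adjusted p of 6.85e-07. Nfkbiz was close at numbers 3 and 4, with a log2 difference of -0.04, and lower at number 5, with a log2 difference against number 3 of -0.71 and an edgeR adjusted p of 7.51e-06. Nfkb1 was lower at number 5 than at number 3 by a log2 difference of -0.21, with an edgeR adjusted p of 0.0157. The other 5, Rela, Nfkb2, Relb, Tnfaip3 and Vcam1, had adjusted p-values of 0.121 to 0.478. The p measures how constant a difference between numbers was over treatments.

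**Figure D3:**
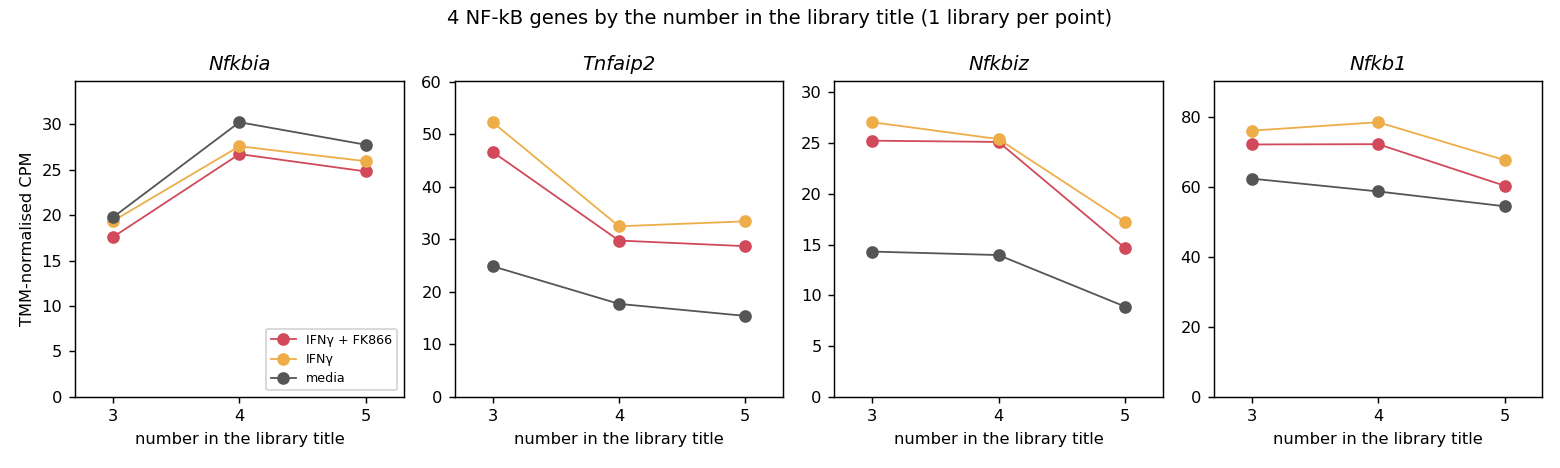
TMM-normalised CPM (linear axes starting at 0) of the 4 NF-kB genes that differed between numbers, by the number in the library title, 1 point per library, with lines joining libraries of 1 treatment. Nfkbia is lowest and Tnfaip2 highest at number 3 in all 3 treatments, and Nfkbiz is lowest at number 5.

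Other genes of the pathway were taken from 4 lists of receptors and adaptors, kinases and other regulators, further target genes and further adhesion molecules. Beside a median log2 difference between IFNγ and media of -0.01 over all 15237 genes tested, with the block, the 9 NF-kB genes tested had a median of 0.21. Log2 fold changes of the lists are from the fit with the block unless stated. Over all genes that fit called 8.12% higher and 6.14% lower between IFNγ and media, and the fit without the block called 3.3%. Of 19 receptors and adaptors 15 were tested, with a median of 0.42, and 4 rose in both fits while 2 more rose and 2 fell with the block. Tnfrsf1a, the main receptor for tumour necrosis factor, had 267 ± 14.6 CPM with IFNγ and 70.8 ± 5.79 CPM in media, a log2 fold change of 1.92. Myd88, the adaptor of toll-like and interleukin-1 receptors, had 29.3 ± 6.60 CPM with IFNγ and 7.28 ± 1.04 CPM in media, a log2 fold change of 1.99. Tlr3, a sensor of double-stranded RNA, had 55.8 ± 9.27 CPM with IFNγ and 16.7 ± 1.94 CPM in media, and the kinase gene Ripk1 had 122 ± 5.42 CPM with IFNγ and 50.8 ± 1.13 CPM in media. All 4 kept their calls when any 1 library was left out. With the block, Ltbr, the lymphotoxin beta receptor gene, rose by a log2 fold change of 0.50, and Birc2, which encodes a ubiquitin ligase that restrains the Map3k14 route, by 0.42, its call being lost without number 4. Traf3, which targets the Map3k14 product for degradation, changed by -0.36 with the block, and the receptor gene Tlr4 by -0.29, the call of Tlr4 being lost without number 3 or 5. Tnfrsf1b, Tnfrsf11a, Cd40 and Il1r1 were not tested for low counts.

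Of 20 kinases, other subunits and other regulators 19 were tested, with a median log2 difference of 0.08 between IFNγ and media. Here 1 rose in both fits, Cyld, a deubiquitinase that restrains the pathway, with 72.3 ± 6.85 CPM with IFNγ and 47.2 ± 4.17 CPM in media and an edgeR adjusted p of 0.0398 without the block. That call was lost in 7 of the 9 fits that left out 1 library, and held with the block without each number. With the block 4 more rose. Bcl3, a nuclear IkB protein like IkB-zeta, had 2.90, 15.8 and 9.48 CPM with IFNγ, against 0.314, 3.18 and 2.51 CPM in media, a log2 fold change of 2.24. The groups overlapped across numbers, but IFNγ lay above media at each. Tbk1, a kinase related to the IkB kinases, changed by 0.56, Map3k14 by 0.53 and Tab2, an adaptor of the kinase TAK1, by 0.30, the call of Map3k14 being lost without number 4 or 5 and that of Tab2 without number 4. Nfkbid was not tested for low counts.

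Of 27 further target genes 14 were tested, with a median log2 difference of 0.52 between IFNγ and media, and 4 rose in both fits. Several of them are also known as genes induced by IFNγ. The chemokine gene Cxcl10 had 1094 ± 583 CPM with IFNγ and 40.5 ± 33.6 CPM in media, a log2 fold change of 4.90. Without the block it was 4.75, and leaving out 1 library moved it to between 4.23 without IFNγ library 4 and 5.68 without media library 4, with the call kept each time. Csf1, the macrophage growth factor gene, had 149 ± 30.5 CPM with IFNγ and 51.8 ± 20.4 CPM in media, and the chemokine gene Cx3cl1 had 18.1 ± 8.71 CPM with IFNγ and 2.37 ± 1.10 CPM in media. Gadd45b, a stress gene, had 18.8 ± 2.43 CPM with IFNγ and 9.09 ± 2.47 CPM in media. Without the block, the call of Csf1 was lost without IFNγ library 3 or 4 or media library 4, with an adjusted p of up to 0.0692, that of Cx3cl1 without media library 5, at 0.0523, and that of Gadd45b in 7 of 9 such fits, at up to 0.168. With the block 3 more rose. Birc3, an inhibitor of apoptosis, changed by a log2 fold change of 0.89, with its call lost without number 3 or 4, and Ier3, an early response gene, by 0.36. Nos2, the inducible nitric oxide synthase gene, had 21 reads with IFNγ and 1 in media, and its lowest IFNγ library stood at 0 CPM. After scaling, its reads were 22.1 times as many with IFNγ (95% interval from counting error alone 3.55 to 912). The call of Nos2 was lost without number 4, and the gene fell below the filter without number 3. Nos2 passed the filter only through cytokine-treated libraries, so its call leans on the groups where it was high. Cxcl1, Cxcl2, Ccl5, Lif, Bcl2l1, Sod2 and Zc3h12a were tested and not called in either fit. The cytokine genes Tnf, Il6, Il1a and Il1b, the chemokine genes Ccl2, Ccl20 and Cxcl5, and Csf2, Traf1, Bcl2a1b, Ptgs2, Mmp9 and Plau were not tested for low counts.

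Of 19 further adhesion molecules 11 were tested, with a median log2 difference of -0.12 between IFNγ and media, and 0 were called without the block. With the block 2 rose and 3 fell. Itga4, which encodes the alpha4 subunit of the integrin that binds VCAM1, had 89.9 ± 29.1 CPM with IFNγ and 136 ± 40.8 CPM in media, a log2 fold change of -0.61 that was called without each number. Alcam changed by -0.44, called with numbers 3 and 5 left out but not without number 4, and the cadherin gene Cdh2 by -0.20, its call being lost without any 1 number. Icam2 had 61 reads with IFNγ and 20 in media, a log2 fold change of 1.62, and the integrin gene Itgb7 changed by 1.84, both losing their calls without number 4 or 5. Like Vcam1, Icam2 and Itgb7 passed the filter on low counts only through cytokine-treated libraries. Their highest media libraries stood at 0.438 and 0.314 CPM, so these calls lean on the groups where the genes were high. For Itgb7 the value without number 5 was 1.17. Icam4, Icam5, Itgal, Itgb2, Sele, Selp, Pecam1 and Madcam1 were not tested for low counts. Between IFNγ plus FK866 and IFNγ, 0 genes of these 4 lists were called by edgeR with or without the block.

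**Figure D4:**
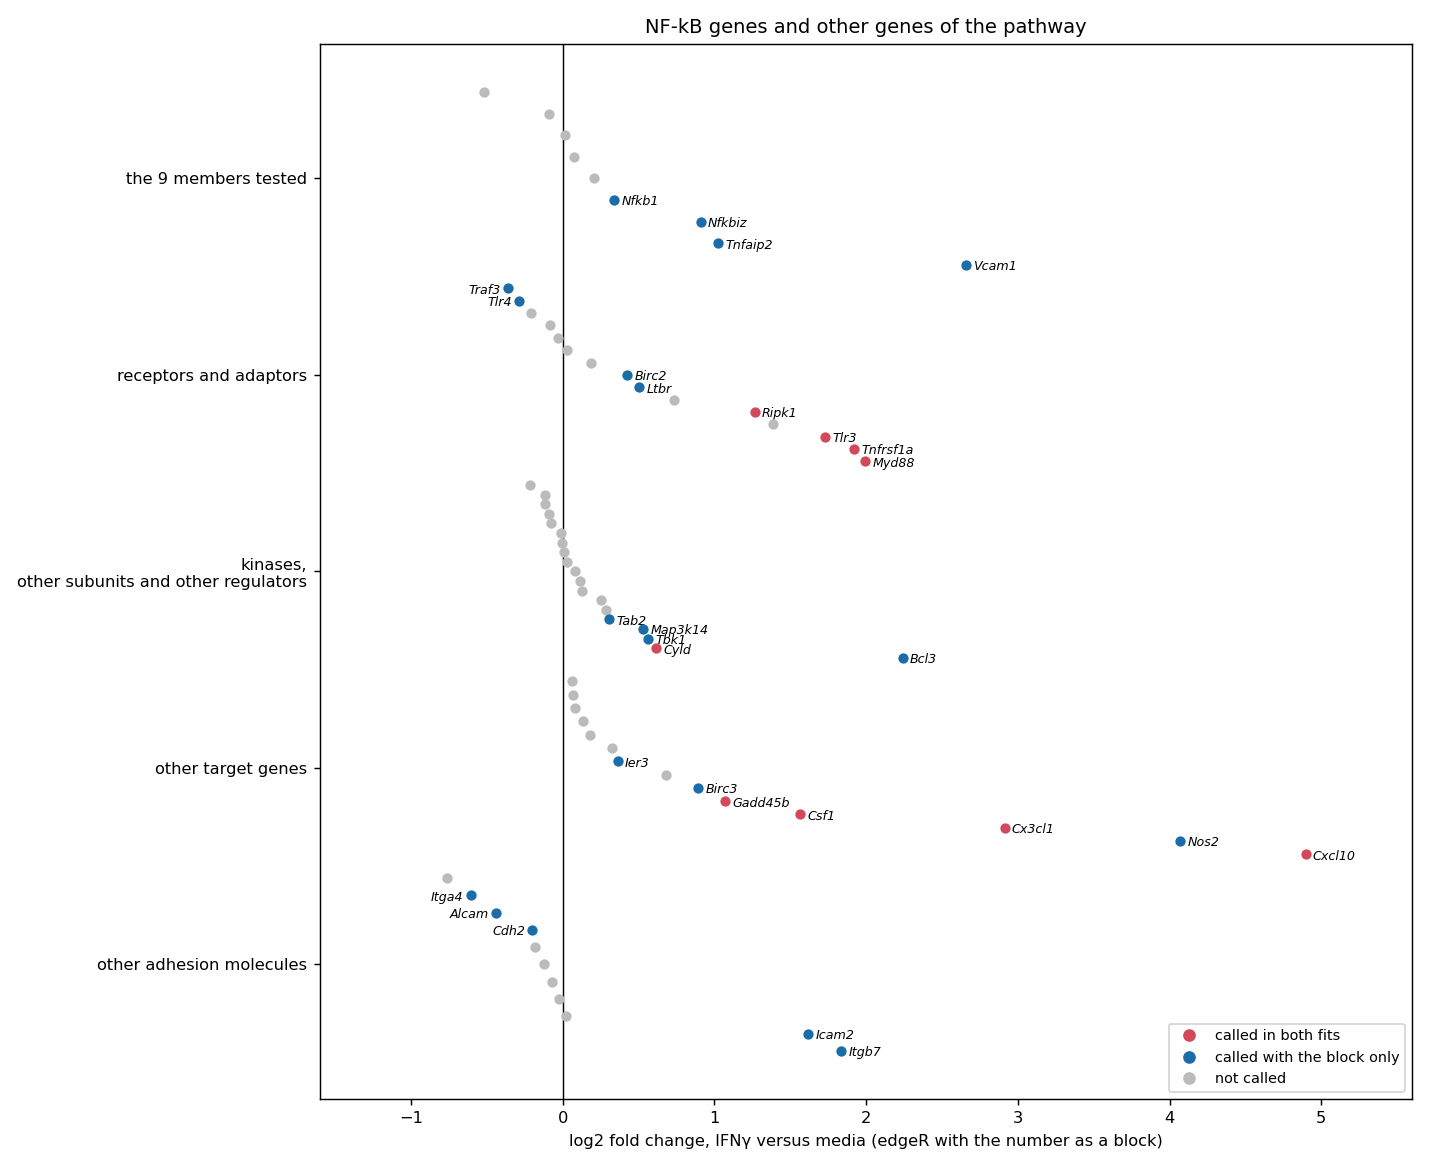
Log2 fold change between IFNγ and media (edgeR with the number as a block) of every tested gene among the NF-kB genes and the 4 further lists of the pathway, 1 point per gene, coloured by whether it was called in both fits, with the block only, or not. Cxcl10 lies farthest to the right, and the genes called lower are Traf3, Tlr4, Itga4, Alcam and Cdh2.

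The genes whose profiles over the 9 libraries lay nearest to each of the 4 called NF-kB genes were found by the root mean square difference of log2 CPM after centring each gene on its own mean, among genes with a mean of at least 1 CPM. The 9 libraries share treatments and numbers, so many genes have similar profiles. Nfkb1, whose own SD over the libraries was 0.172 on the log2 scale, was nearest to Rab5c at 0.0601, Nfe2l2 at 0.0618 and Tmem59 at 0.0621. Nfkbiz, with an SD of 0.516, was nearest to Jak3 at 0.0832, Stx11 at 0.120 and Jam3 at 0.133. Tnfaip2, with an SD of 0.541, was nearest to Gclm at 0.0903, Maff at 0.0909 and Ero1l at 0.122. Vcam1, with an SD of 0.976, had no close neighbour, the nearest being Dhx58 at 0.366, Trafd1 at 0.368 and Kcnk2 at 0.371. Vcam1 held only 79 reads over all libraries, and the part of counting error in these distances was not tested. None of these 12 neighbours is among the 10 NF-kB genes or the 4 lists of the pathway.

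In GRCm38, with the GENCODE M21 annotation, all 10 are protein-coding genes. Nfkb1 lies on chromosome 3 at 135584655-135691547 and Vcam1 on the same chromosome at 116109949-116129688, both on the minus strand. Nfkb2 lies on chromosome 19 at 46304320-46312385 and Rela on the same chromosome at 5637483-5648130, both on the plus strand. Nfkbia lies on chromosome 12 at 55489410-55492647 on the minus strand, and Tnfaip2 on the same chromosome at 111442469-111455018 on the plus strand. Relb lies on chromosome 7 at 19606217-19629438, Nfkbiz on chromosome 16 at 55811375-55838899 and Tnfaip3 on chromosome 10 at 19000910-19015657, all on the minus strand. Icam1 lies on chromosome 9 at 21015985-21028817 on the plus strand.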

How the data were processed

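The deposited table holds raw counts of reads per Ensembl gene for 9 libraries, as its whole-number values show, and was treated as bulk RNA sequencing, although a droplet platform is mentioned for the series. The tools listed per the submitters' processing notes, without roles, are cutadapt 1.16, STAR 2.7.6a, featureCounts 1.6.3 and, at version 1.30.1, DESeq2. Annotation release and strand setting: not given in the sources used here. Of 55487 genes 55141 had a symbol and 28707 had 0 counts in every library. Replicates differed by more than counting noise (chi-square per degree of freedom 21.59 to 37.22), so none were merged.

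Group means were fitted to the counts of all 9 libraries at once with edgeR 4.0.16 under R 4.3.3, after filterByExpr with a minimum count of 10 and TMM scaling, and tested by quasi-likelihood F tests with Benjamini-Hochberg adjustment over 15237 genes. DESeq2 1.42.0 was an alternative. Others were size factors of another kind, library totals, no filter, 2 groups only, and leaving out each library. Libraries are paired by the number in their titles, since deviations from group means correlated by 0.634 to 0.803 over 9 same-number pairs and by -0.536 to -0.129 over 18 others. Deviations within a group cancel out, so positive same-number correlations make those of the other pairs negative on average. The negative range is therefore no separate evidence of pairing. Intervals are 95% and cover counting error and the spread between libraries, except that of Nos2, which covers counting error only. Log2 differences within a number used CPM plus 0.1. The edgeR script was tested on simulated data.

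Named genes are all 10 NF-kB genes, the genes of 4 pathway lists called between IFNγ and media, Irf1, Nampt and the 3 nearest profiles. Genes not tested for low counts are listed by name. The 6 melanocyte markers given by name, of 7 in that list, were singled out after their values were seen, as were Cd68 and Col1a2. The genes and lists were chosen with earlier results of these data known.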

Additional observations from a re-analysis of the deposited data

How the results depend on the processing

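With the number as a replicate block, the paired fit, genes higher with IFNγ than in media numbered 1237 against 427 without it, and lower ones 936 against 76. For IFNγ plus FK866 against media they were 1299 against 421 and 1160 against 91, and for IFNγ plus FK866 against IFNγ 2 higher and 1 lower against 0 and 0. NF-kB genes called higher numbered 4 in both comparisons with media, against 0. DESeq2 with the block gave 1079 and 759, 1119 and 906, and 1 higher, with 4 and 3 NF-kB genes. DESeq2 without it gave 180 lower for IFNγ and 198 for the combination, with 2 and 1 NF-kB genes, no filter gave 1 NF-kB gene with IFNγ, and only 2 groups in the fit gave 59 lower with IFNγ plus FK866. The causes were not tested.

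Leaving out 1 library without the block gave 287 to 420 genes higher and 26 to 68 lower with IFNγ, 34 to 75 lower with IFNγ plus FK866, and 0 to 1 NF-kB genes with IFNγ, the 1 being Vcam1 without IFNγ library 5 (adjusted p = 0.0287). With the block, leaving out number 3, 4 or 5 in turn gave 1100, 867 and 1152 higher and 783, 535 and 678 lower with IFNγ, with 3 to 4 NF-kB genes. It gave 1501, 855 and 1188 higher and 1101, 543 and 701 lower for IFNγ plus FK866 against media, with 2 to 4 NF-kB genes higher and 0 to 1 lower, and 1 to 5 higher and 0 to 3 lower against IFNγ.

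Log2 differences that changed sign were all of genes that were not called in that comparison. With library totals Rela was -0.014 for IFNγ against media, and Nfkb2 was 0.027 and Rela 0.028 for FK866 added to IFNγ. With the block in DESeq2 Rela was 0.00048 there. For IFNγ plus FK866 against media Relb was -0.0089 with the block, -0.0012 without the filter and -0.0057 with the block in DESeq2. Leaving out 1 library, the range for IFNγ against media was -0.058 to 0.088 for Rela and -0.26 to 0.048 for Nfkbia, and for IFNγ plus FK866 against media -0.056 to 0.077 for Rela and -0.15 to 0.14 for Relb. For FK866 added to IFNγ it was -0.053 to 0.050 for Nfkb2, -0.075 to 0.066 for Rela, -0.21 to 0.085 for Nfkbia, -0.28 to 0.12 for Nfkbiz, -0.43 to 0.091 for Tnfaip2 and -0.85 to 0.22 for Vcam1. With the block and a number left out, Rela was -0.030 for IFNγ against media without number 4. For FK866 added to IFNγ, Nfkb2 was 0.014 and 0.0038 without numbers 3 and 4, Rela 0.068 and 0.072 without 4 and 5, Tnfaip3 0.13 without 4 and Vcam1 0.38 without 3. For IFNγ plus FK866 against media Nfkb2 was -0.0029 and Relb -0.17 without 5, and Rela -0.095 without 3. The block with a number left out and the block in DESeq2 were chosen after seeing the data. Depth limits Vcam1 and Icam1.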
